A study of Xenopus laevis with 20 samples.

Results

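Translation initiation and elongation factors were followed in whole Xenopus laevis embryos at stage 13, the early neurula, when the eye field forms. Probe sets were taken when the platform annotation gave them a gene symbol beginning with eif and a digit, or with eef1 or eef2. This gave 85 of the 15491 gene probe sets of the array, 65 for initiation factors and 20 for elongation factors. A single symbol was given to 80 of them, and these carry 57 symbols of 48 genes when the endings .L and .S are ignored; the endings name the paired gene copies of this allotetraploid frog. The other 5 probe sets carry several symbols. Of these, 4 join both copies of eef1d, eif3g, eif4a1 or eif1b and 1 joins eif4g2.S and nat1, and no single gene was named from them.

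The study asked which transcripts change when Xrx1, a homeobox gene of the eye field now called rax, is in excess or is blocked. Per the labels, 10 arrays held uninjected sibling embryos, 5 held embryos given synthetic wild-type Xrx1 mRNA and 5 held embryos given the morpholino MoXrx1, an antisense oligonucleotide directed at Xrx1. Both injected groups also received GFP mRNA as a tracer, into both dorsal cells of the 4-cell embryo. According to the labels 3 embryos were pooled for each array, while the design text speaks of single embryos. The doses are not settled. Xrx1 mRNA is given as 50 pg in 1 place and 50 ng in another. GFP mRNA is likewise given as 400 pg or as 400 ng. For the morpholino the amount reads 1 pM, 10 pg or 0.5 pmol. No label says that arrays of a group stem from separate matings, so a p-value here reflects only array-to-array spread, which may be partly technical. In RNA of whole embryos, fewer cells of a type and less RNA per cell cannot be told apart.

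The 20 arrays fell into sets of 10 that the labels do not name. The first held controls 1 to 5 and mRNA arrays 1 to 5; the other held controls 6 to 10 and the arrays labelled morpholino 1 to 5. The first principal component held 33.0% of the variance and separated the sets without overlap. A control probe set that read the tracer was high in mRNA arrays 1 to 5 and low in controls 1 to 5. In the second set it went against 8 of 10 labels, being high (above log2 8) in the arrays labelled control 6, 7, 8 and 9 and morpholino 5, and low in control 10 and morpholino 1 to 4. The direction of the labelled morpholino comparison is therefore unsettled, and values in the second set are given by tracer state as well. Fits by label pool the spread over all 20 arrays, and the labelled groups of set 2 mix tracer states. A tracer difference there thus enters the SE and p of every comparison by label, that of set 1 included. For eif4g1.S the limma SE was 0.13 by label and 0.10 by tracer state. Probe sets for markers of epidermis, neural plate, mesoderm and endoderm were detected; ncam1.L, gtf3a.L and zpd.L had medians below log2 4, while ncam1.S was at 5.38 and the oocyte genes zp2.L at 7.88, eef1a1o.L at 10.45 and eef1a1o.S at 14.25.

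Initiation factors bring the small ribosomal subunit and the initiator tRNA to the start codon of a messenger RNA. The cap-binding protein eIF4E, the scaffold eIF4G and the helicase eIF4A load the message, eIF2 carries the initiator tRNA, and the large eIF3 complex holds the parts together on the small subunit. In elongation, eEF1A delivers aminoacyl-tRNA, the eEF1B complex recharges eEF1A with GTP, and eEF2 moves the ribosome along. The early frog embryo runs for hours on stored maternal messages, with variants of some of these factors made in the oocyte.

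Nearly every member gave a usable signal. A probe set was tested when its log2 value exceeded 4 in at least 5 of 20 arrays, and 81 of the 85 members passed, whereas 67.4% of all gene probe sets did. The 4 that did not pass were eef1a2.S, whose mammalian counterpart is the isoform of adult muscle and neurons, the eIF2 kinase gene eif2ak1.L, and 1 probe set each of eef1d.L and eif4a1.S that are measured by other probe sets too. None of these 4 exceeded log2 3.01 in any array. The tested members also had a lower median SD within groups than all tested probe sets, in a comparison not matched for signal level. Their median SD was 0.24 in controls 1 to 5, 0.19 in mRNA arrays, 0.20 in controls 6 to 10 and 0.25 in morpholino arrays, against 0.29, 0.27, 0.28 and 0.34 over all 10435 tested probe sets. The steadiest in controls 1 to 5 was a probe set of eif5a.L, the hypusine-carrying factor, at 11.76 ± 0.04 (SD, n = 5). The most variable was 1 of the probe sets of eif4e2.L, a cap-binding relative of eIF4E, at 4.43 ± 1.07 (SD, n = 5).

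**Figure D1:**
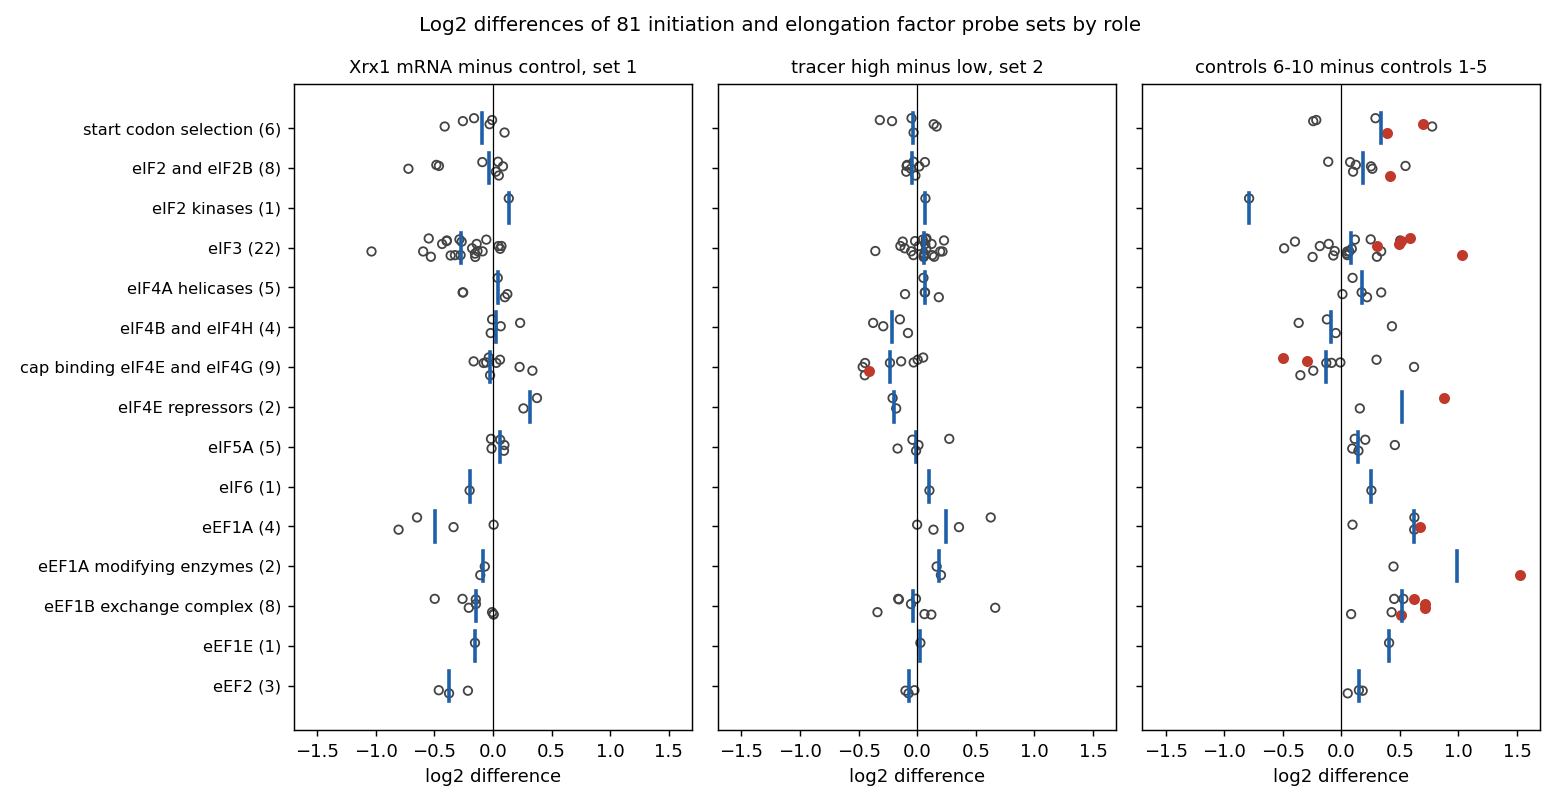
Log2 differences (x axis) of the 81 tested probe sets, grouped by role (y axis, number of probe sets in brackets), for Xrx1 mRNA against control arrays of set 1, for arrays of high against low tracer signal in set 2, and for controls 6 to 10 against controls 1 to 5. Circles are probe sets, filled red ones have a limma adjusted p under 0.05 and blue bars are role medians; the eIF3 median lies at -0.27 on the left, and the called members are 0, 1 and 17 from left to right.

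No translation factor passed the test between Xrx1 mRNA and control arrays of the first set, but most lay slightly lower. Of the 81 members 55 had a negative difference, with a median of -0.09 (log2, mRNA minus control), beside 0.03 over all 10435 probe sets. Medians were negative for the eIF3 subunits and for eEF1A, eEF1B and eEF2, while eIF4A, eIF5A, eIF4B and eIF4H had medians between 0.03 and 0.06. The cap-binding group had a median of -0.02, and of 0.01 after the arrays were quantile normalized again. A probe set is said to be called when its limma p, adjusted over all 10435 by Benjamini-Hochberg, is under 0.05. By that rule 0 members were called in either direction, beside 0% of all probe sets. At an unadjusted limma p under 0.05 there were 12 members, which is 14.8% of 81, beside 7.44% of all probe sets. Cell type markers had unequal medians in the same comparison, with 0 called by limma. The median was -0.56 over 4 epidermis probe sets (3 negative), 0.54 over 5 of mesoderm (4 positive), 0.09 over 8 of the neural plate and -0.06 over 7 of endoderm. Over the 2 probe sets of the organizer and axial list, nog.L and shh.L, the median was -0.11. The summed level of the epidermis list ran from 13.11 to 14.03 in controls 1 to 5 and from 12.48 to 13.29 in mRNA arrays (log2). The mesoderm list ran from 10.17 to 10.98 and from 10.67 to 11.51. The part of these tissues in the members' differences was not tested. With the shared replicate number as a block the members called were again 0, beside 0.0671% of all probe sets called lower.

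The eIF3 complex was measured by 22 probe sets, all of which passed the filter. In 19 of them the mRNA mean was below the control mean, and the median difference was -0.27, with a range from -1.04 to 0.07; none was called. The gene eif3g codes for an RNA-binding subunit. Its .L copy was at 9.65, 9.59, 9.92, 9.56 and 9.97 in controls 1 to 5 and at 9.51, 8.99, 9.39, 9.19 and 8.87 in mRNA arrays 1 to 5. All mRNA arrays lay below all controls of the set. The difference was -0.55 ± 0.17 (SE, limma, adjusted p = 0.566, and 0.287 with the block). The difference was smaller for eif3g.S, at -0.32 ± 0.18 (limma, adjusted p = 0.727), and for the probe set that joins both copies, at -0.40 ± 0.18 (adjusted p = 0.619).

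Other subunits differed unevenly from pair to pair. The probe set of eif3m.S with the smaller p was at 10.02, 10.41, 10.31, 10.12 and 10.37 in controls and at 10.10, 9.79, 9.86, 9.79 and 9.53 in mRNA arrays, a difference of -0.43 ± 0.14 (limma, adjusted p = 0.566). The eIF3 member with the most negative difference, 1 of the probe sets of the core subunit eif3c.S, was at 8.62, 10.43, 10.02, 8.96 and 10.44 in controls. In mRNA arrays it was at 8.82, 8.53, 9.65, 8.41 and 7.88, a difference of -1.04 ± 0.40 (limma, adjusted p = 0.592). Controls 1 and 4 already lay low for this gene, so the groups overlapped. The other eif3c.S probe set differed by -0.28 ± 0.17 (limma, adjusted p = 0.777). For the scaffold subunit eif3a.L, 2 probe sets were at 0.07 ± 0.10 (limma, adjusted p = 0.964) and 0.06 ± 0.10 (adjusted p = 0.978). The other was at -0.13 ± 0.16 (adjusted p = 0.943) and lower in 5 of 5 pairs. Both probe sets of eif3a.S, with mean signal below log2 5 in both groups, were at -0.39 ± 0.26 (adjusted p = 0.802) and -0.27 ± 0.36 (adjusted p = 0.961).

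**Figure D2:**
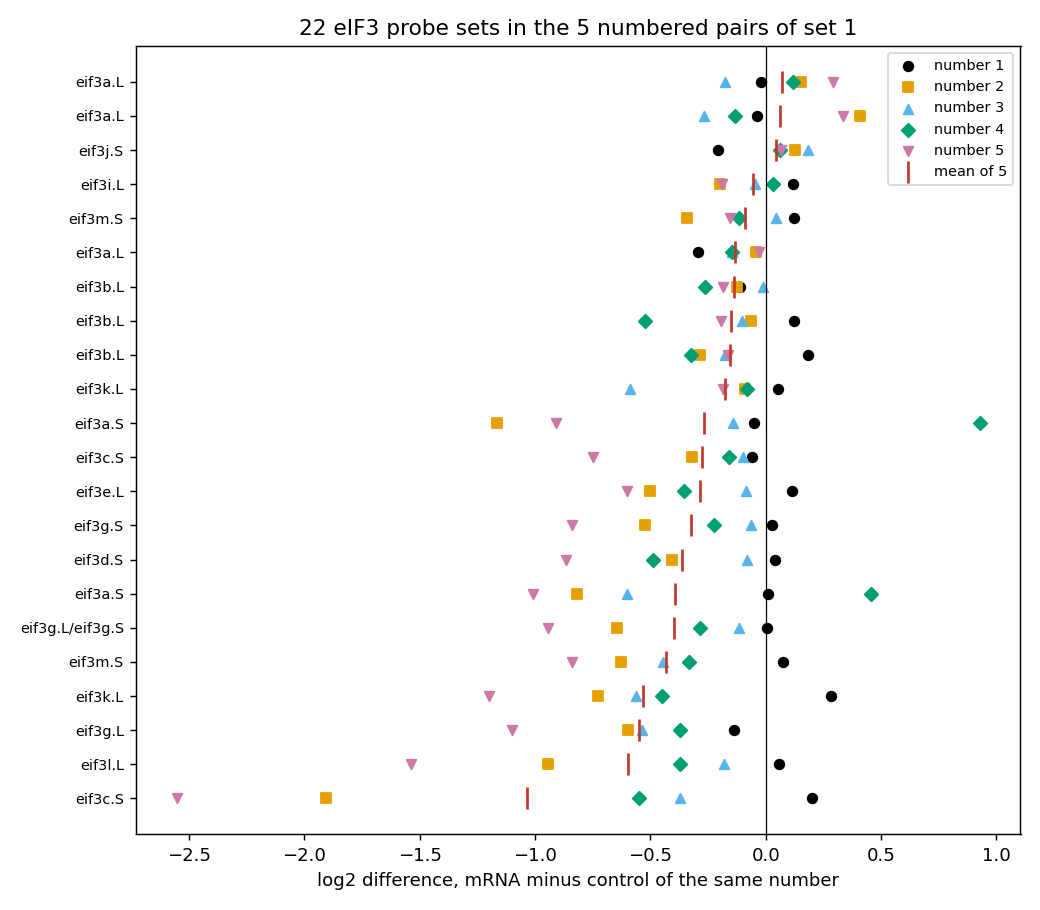
Log2 difference of each eIF3 probe set (y axis, 1 row per probe set, named by gene symbol) between the mRNA array and the control of the same number (x axis) in the first array set, with a red bar for the mean of the 5 pairs. Pair 1 scatters around 0, with a median of 0.03, while pairs 2 and 5 reach furthest to the left, with medians of -0.37 and -0.68.

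The size of the eIF3 difference varied with the array number. The median over the 22 probe sets was 0.03 in pair 1, -0.37 in pair 2, -0.15 in pair 3, -0.24 in pair 4 and -0.68 in pair 5. A measure of RNA integrity varied too. For 4 control transcripts, 3 actins and Gapd, the array reads the 3′ and the 5′ end, and the mean 3′ minus 5′ log2 signal was 3.00, 0.32, 1.29, 2.96 and 0.63 in controls 1 to 5 and 2.50, 2.24, 1.80, 2.94 and 3.92 in mRNA arrays 1 to 5. The mRNA array had the higher value in pairs 2, 3 and 5, and it was about level with its control or lower in pairs 1 and 4.

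Controls 1 and 4, the controls with the large 3′ minus 5′ difference, were also the controls with low eIF3. The mean deviation of the 22 eIF3 probe sets from their 20-array mean was -0.22, 0.17, 0.14, -0.22 and 0.23 in controls 1 to 5, and -0.19, -0.27, -0.06, -0.38 and -0.39 in mRNA arrays. With the 3′ minus 5′ difference as a covariate, an alternative chosen after seeing the data, the median eIF3 difference was -0.09, with 20 of 22 probe sets negative, and the median of all members was -0.04. Pair 4, whose arrays differed by -0.03 in the 3′ minus 5′ measure, had an eIF3 median of -0.24. The part of RNA integrity in the eIF3 difference was not tested beyond this covariate fit. Ribosomal protein transcripts leaned the same way, with a median of -0.16 in mRNA arrays, 68 of 84 tested probe sets negative and 0 called by limma.

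**Figure D3:**
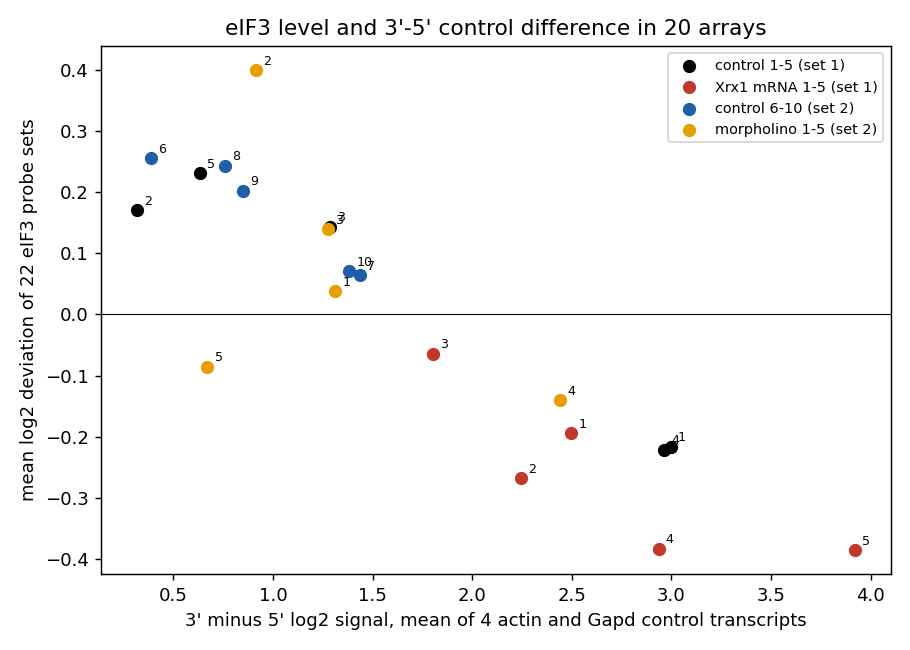
Mean log2 deviation of the 22 eIF3 probe sets from their 20-array mean (y axis) against the mean 3′ minus 5′ log2 signal of 4 actin and Gapd control transcripts (x axis), 1 numbered point per array, coloured by labelled group and array set. Controls 1 and 4 lie at -0.22 with the mRNA arrays on the right, and controls 2, 3 and 5 lie between 0.14 and 0.23 on the left.

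Most elongation factor probe sets also had negative differences in the first set, among them all 3 of eEF2 and both oocyte forms of eEF1A. The 3 probe sets of eef2.1.L, which all read the same gene, differed by -0.46 ± 0.15 (limma, adjusted p = 0.566), -0.37 ± 0.16 (adjusted p = 0.615) and -0.21 ± 0.12 (adjusted p = 0.728). The last of these was at 12.43, 12.56, 12.38, 12.37 and 12.55 in controls and at 12.29, 12.29, 12.18, 12.21 and 12.25 in mRNA arrays. Its groups did not overlap although the difference was small. For eef1a1o.S, an eEF1A of the oocyte and early embryo, the controls were at 12.96, 14.29, 14.10, 13.48 and 14.31 and the mRNA arrays at 13.12, 13.29, 13.56, 12.66 and 12.495. The difference of -0.81 ± 0.24 (limma, adjusted p = 0.566) was negative in 4 of 5 pairs, with controls 1 and 4 again low. Its partner eef1a1o.L differed by -0.34 ± 0.20 (limma, adjusted p = 0.749).

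The somatic eef1a1.S was read by a probe set between 14.77 and 15.10 in every array, near the top of the deposited scale of 15.4, and its difference was 0.01 ± 0.10 (limma, adjusted p = 0.999). A second probe set of that gene, with lower signal, differed by -0.65 ± 0.43 (adjusted p = 0.795). In the eEF1B exchange complex 6 of 8 tested probe sets were negative, with a median of -0.15. The eef1d.L probe set was at 7.37, 7.77, 7.38, 7.31 and 7.54 in controls and at 7.28, 6.52, 7.02, 6.97 and 7.08 in mRNA arrays, all below the controls. The difference was -0.50 ± 0.20 (limma, adjusted p = 0.599), and pair 2 alone reached -1.25.

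Higher in every numbered pair were 3 members (3.70%), beside 7.89% of all probe sets. They read 1 eIF4G gene and the 2 repressors of eIF4E. eif4g1.S, which codes for the eIF4G scaffold, was at 10.39, 10.33, 10.24, 10.33 and 10.37 in controls 1 to 5 and at 10.62, 10.74, 10.47, 10.57 and 10.94 in mRNA arrays. The groups did not overlap, and the difference was 0.34 ± 0.13 (limma, adjusted p = 0.597, and 0.303 with the block). eif4ebp2.S codes for an eIF4E-binding repressor held in check by mTOR. It was at 7.29, 7.06, 6.95, 7.24 and 6.90 in controls and at 7.51, 7.39, 7.48, 7.48 and 7.45 in mRNA arrays, a difference of 0.38 ± 0.16 (limma, adjusted p = 0.615, and 0.288 with the block). eif4enif1.L, which codes for 4E-T, a transporter and repressor of eIF4E, differed by 0.26 ± 0.15 (adjusted p = 0.747). The other eIF4G probe sets did not share the direction of eif4g1.S throughout. eif4g2.S was lower in 5 of 5 pairs, at -0.16 ± 0.10 (limma, adjusted p = 0.777), and its joint probe set with nat1 was at -0.06 ± 0.09 (adjusted p = 0.975). eif4g3 was higher in 4 of 5 pairs, at 0.23 ± 0.33 (adjusted p = 0.965).

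Counted over pairs, 15 members (18.5%) were lower in the mRNA array in 5 of 5 pairs, beside 5.63% of all probe sets, and 3 members (3.70%) were higher in all 5, beside 7.89%. The 15 included all 3 eef2.1.L and both eef1g.L probe sets, so they are not 15 separate genes. Groups that did not overlap were found for 2 members above the controls, eif4g1.S and eif4ebp2.S, beside 0.652% of all probe sets, and for 4 below, beside 0.412%. The 4 were eef1d.L, eif3g.L and 2 of the eef2.1.L probe sets.

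The remaining initiation groups had medians nearer 0 than that of eIF3 in the first set, and some were read by few probe sets. Start codon selection was negative in 5 of 6 probe sets, with a median of -0.095 and a range from -0.41 to 0.10. After quantile normalization its median was -0.03, with 3 negative. Of the 8 probe sets for eIF2, its exchange factor eIF2B and eif2a.S, 4 were positive and 4 negative. Those for eif2s1.S, eif2s2.L, eif2s2.S and eif2s3.S, the 3 subunits of eIF2 that hold the initiator tRNA, lay between -0.09 and 0.09, while the eIF2B subunits eif2b2.L, eif2b3.L and eif2b4.L were at -0.48 ± 0.23 (limma, adjusted p = 0.671), -0.46 ± 0.47 (adjusted p = 0.915) and -0.72 ± 0.35 (adjusted p = 0.671). eif2ak2.L, the gene of the double-stranded RNA kinase PKR, was at 5.63 ± 0.53 (SD, n = 5) in controls and 5.77 ± 0.16 (SD, n = 5) in mRNA arrays. All 5 eIF5A probe sets, which read the single gene eif5a.L, stayed between -0.02 and 0.10. eif6.S, whose product keeps the large subunit apart from the small one, was at -0.20 ± 0.14 (limma, adjusted p = 0.817).

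In the second set, compared by label, no member was called. Differences of morpholino minus control arrays had a median of -0.03, beside -0.01 over all probe sets. Of the 22 eIF3 probe sets 18 were negative, with a median of -0.13. With the 3′ minus 5′ covariate the eIF3 median was -0.04, with 15 negative. Ribosomal protein probe sets were negative in 67 of 84, with a median of -0.09. Called by limma in either direction were 0 members, beside 0% of all probe sets. At an unadjusted p under 0.05 there were also 0 members, beside 4.33% of all probe sets. The smallest unadjusted p among members belonged in the negative direction to eif3m.S, at -0.29 ± 0.14 (adjusted p = 0.997), eef1b2.L, at -0.41 ± 0.22 (adjusted p = 0.997), and eif4a2.L, at -0.21 ± 0.15 (adjusted p = 0.997). In the positive direction they belonged to eif4e1b.S, at 0.29 ± 0.17, eif4ebp2.S, at 0.23 ± 0.16, and the probe set that joins both copies of eif1b, at 0.27 ± 0.19 (limma, each adjusted p = 0.997). A probe set of eif5a.L came next, at 0.18 ± 0.13 (adjusted p = 0.997). No member's labelled groups were free of overlap. Over all probe sets 0.172% had every morpholino array above the controls of set 2, and 0.192% had every one below.

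**Figure D4:**
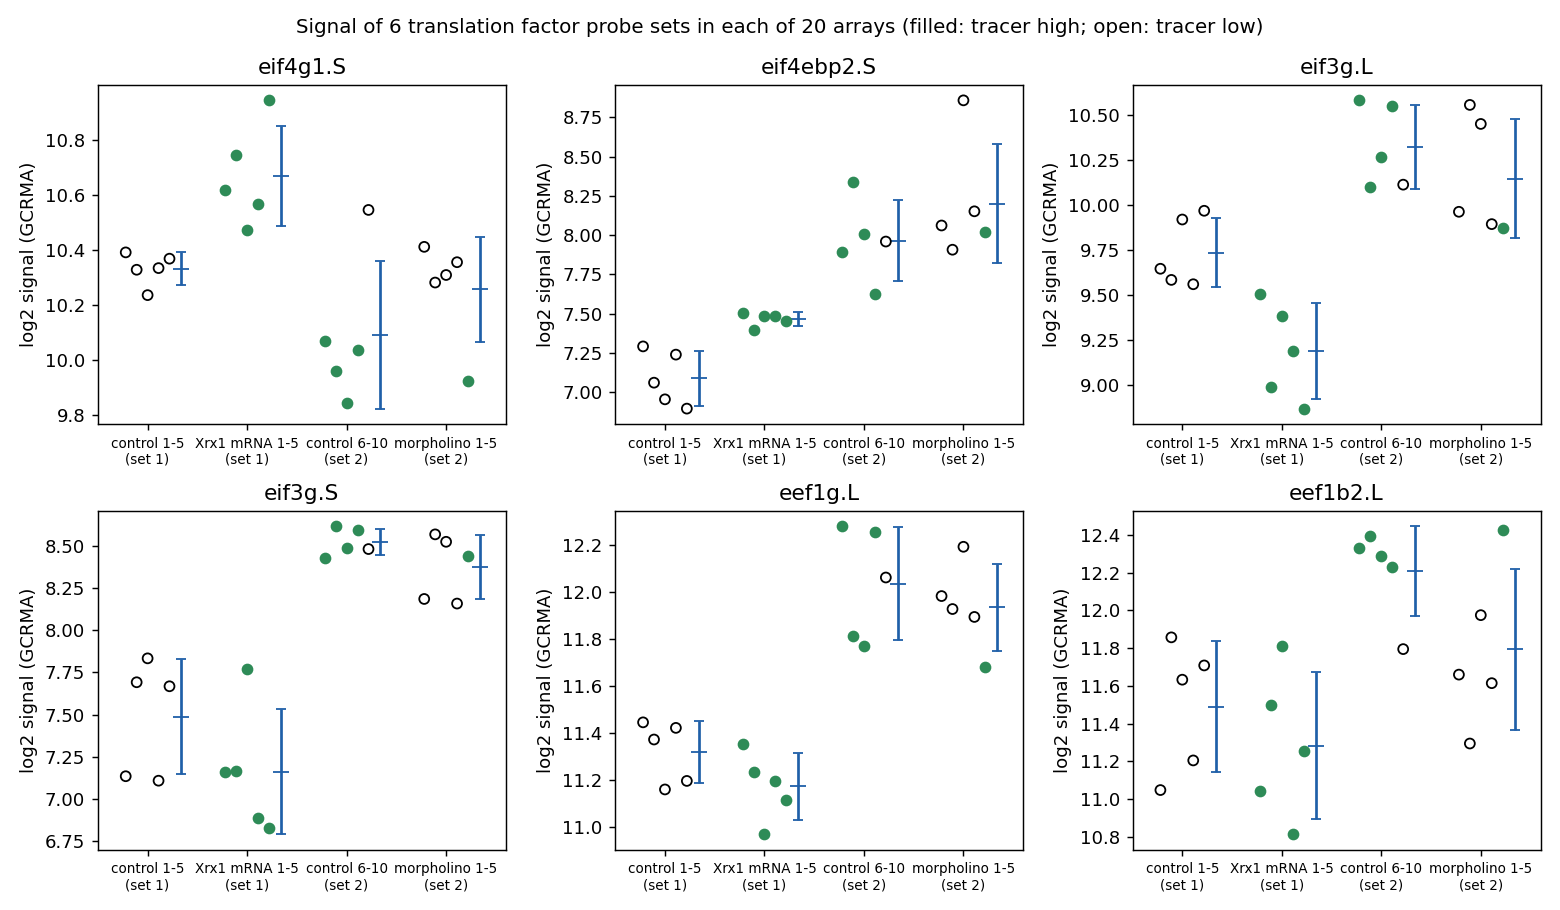
Deposited log2 signal (y axis) of 6 probe sets in each of the 20 arrays, grouped by label and array set (x axis), with points filled where the tracer signal was high and open where it was low; blue bars give the mean and SD of the 5 arrays. For eif4g1.S the filled points lie above the open ones in set 1 and below them in set 2, and for eef1b2.L the filled points of set 2 lie above its open ones.

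Grouped by tracer state instead, the second set showed 1 called translation factor, eif4g1.S. It was at 10.07, 9.96, 9.85, 10.04 and 9.93 in the arrays of high tracer signal (controls 6 to 9 and morpholino 5) and at 10.54, 10.41, 10.28, 10.31 and 10.36 in those of low signal (control 10 and morpholino 1 to 4). The groups did not overlap, and the scaffold gene was lower where the tracer was high, by -0.41 ± 0.10 (limma, adjusted p = 0.0326). It was the only member called lower of 81, beside 1.65% of all probe sets, and 0 members were called higher, beside 1.29%. The call depended on the arrays and on the model. It was kept in 4 of 10 fits that left out 1 array, with adjusted p between 0.041 and 0.089, and was lost when the fit used only the 10 arrays of the set (adjusted p = 0.081) and with the 3′ minus 5′ covariate (-0.38, adjusted p = 0.069).

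The direction of eif4g1.S in the second set was opposite to that in the first. The difference between the tracer differences of the 2 sets was -0.75 ± 0.14 (limma interaction, adjusted p = 0.0253), and eif4g1.S was again the only member called lower, beside 0.259% of all probe sets; 0 were called higher, beside 0.211%. All 5 mRNA arrays lay above the controls of their set and all 5 arrays of high tracer signal lay below the others of theirs. That call was kept in 14 of 20 fits that left out 1 array and was lost without mRNA 2, mRNA 5, control 7, control 10, morpholino 1 or morpholino 5, with values from -0.80 to -0.68. With the 3′ minus 5′ covariate the difference was -0.67 (limma, adjusted p = 0.252). The arrays of high tracer signal in set 2 do not carry labels that say what was injected, apart from morpholino 5.

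By tracer state 5 members (6.17%) had an unadjusted limma p under 0.05, beside 16.3% of all probe sets. After eif4g1.S, eef1b2.L came nearest to the threshold without passing. eef1b2.L, a nucleotide exchange subunit of eEF1B, was at 12.33, 12.40, 12.29, 12.23 and 12.43 in the arrays of high tracer signal and at 11.80, 11.66, 11.30, 11.98 and 11.61 in those of low signal. The groups did not overlap, and the difference was 0.67 ± 0.18 (limma, adjusted p = 0.054). It was called in the fit of the 10 arrays alone (adjusted p = 0.036) and without morpholino 3 (adjusted p = 0.042). The other eef1b2.L probe set, near log2 6, differed by 0.06 ± 0.24 (limma, adjusted p = 0.942). eif4e1b.S, the cap-binding variant of oocytes and early embryos, was lower by -0.45 ± 0.15 (limma, adjusted p = 0.115), without overlap. For eif3a.L, the probe set with the smallest p differed by -0.36 ± 0.14 (adjusted p = 0.179), with overlap, and another by -0.14 ± 0.10 (adjusted p = 0.526), without overlap.

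Groups that did not overlap by tracer state were thus 1 member above, beside 2.81% of all probe sets, and 3 below, beside 2.87%. In the main fit 15 of the 22 eIF3 probe sets were positive here, with a median of 0.06. With the 3′ minus 5′ covariate 15 of 22 were negative, with a median of -0.04, and the median of all members was -0.08. In this set the 3′ minus 5′ signal averaged 0.82 ± 0.39 (SD, n = 5) in arrays of high and 1.47 ± 0.57 (SD, n = 5) in arrays of low tracer signal, the reverse order of the first set. None of the 4 tested eEF1A probe sets was negative, and none was called. The largest differences were those of the weaker eef1a1.S probe set, at 0.63 ± 0.40 (limma, adjusted p = 0.489), and eef1a1o.L, at 0.36 ± 0.18 (adjusted p = 0.354). The stronger eef1a1.S probe set was level, at 9.1e-05 ± 0.095 (adjusted p = 0.9999). All 4 probe sets for eIF4B and eIF4H, which stimulate the eIF4A helicase, were negative, with a median of -0.22 and none called. Tissue markers differed by tracer state too. Called lower were 1 of 8 neural plate probe sets (median -0.31) and 1 of 2 organizer and axial ones (-0.87), beside 1.65% of all probe sets. Of 5 for mesoderm (-0.30) 1 was called higher, beside 1.29%, and for epidermis (0.11) and endoderm (0.31) 0 were called. The part of these tissues in the members' differences was not tested.

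**Figure D5:**
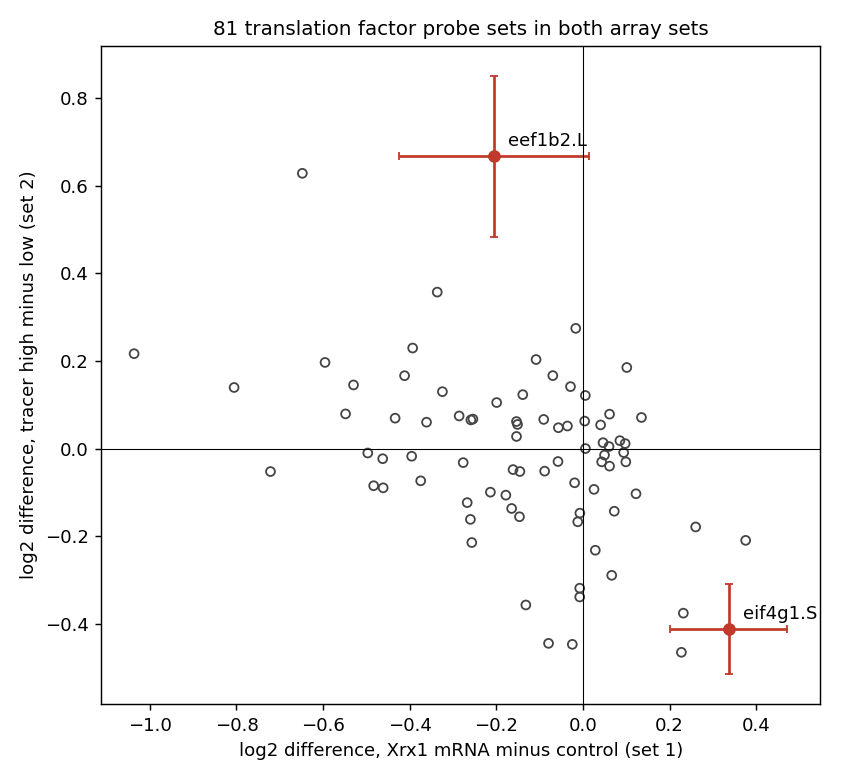
Log2 difference of each of the 81 tested probe sets between Xrx1 mRNA and control arrays in set 1 (x axis) and between arrays of high and low tracer signal in set 2 (y axis), which share no arrays. Error bars on the 2 named probe sets are SE of the fit; 43 of 81 members have opposite signs, and eif4g1.S lies at 0.34 and -0.41.

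Opposite signs in the 2 sets were not particular to these genes. Of the 81 members 43 (53.1%) had opposite signs in the first set and in the second set by tracer state, beside 54.3% of all probe sets; 27 members were negative in both and 11 positive in both.

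Of the comparisons made, that between the controls of the 2 array sets gave the most called members. Between arrays labelled control, 15 members (18.5%) were higher in set 2, beside 14.9% of all probe sets, and 2 (2.47%) were lower, beside 8.53%. At an unadjusted limma p under 0.05 there were 29 members (35.8%), beside 36.2% of all probe sets. The median of the members was 0.17 and that of all probe sets 0.08. After the arrays were quantile normalized again the all-probe-set median was -0.01 and the member median 0.04, and the calls were 8 higher and 3 lower among members and 1119 higher and 1203 lower among all probe sets (10.7% and 11.5%), where the first scale gave 1556 and 890. Directions that follow are on the deposited scale, and 4 of the 5 controls of set 2 carried high tracer signal. With arrays of low tracer signal alone in each set, 11 members (13.6%) were called higher and 1 (1.23%) lower, beside 12.1% and 6.64% of all probe sets. Between all controls, 3 of 8 neural plate markers (median -0.41) and 1 of 2 organizer and axial ones (-0.55) were called lower. Called higher were 1 of 4 for epidermis (0.31) and 1 of 5 for mesoderm (0.34), while 0 of 7 for endoderm (-0.18) were called. The part of these tissues in the members' differences was not tested.

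The eEF1B exchange complex had the largest share of higher calls among groups of more than 2 probe sets, 4 of 8, and its median difference was 0.52 with 8 of 8 positive; after quantile normalization the median was 0.42 and 1 was called. eef1g.L was at 11.45, 11.37, 11.16, 11.42 and 11.20 in controls 1 to 5 and at 12.28, 11.81, 11.77, 12.26 and 12.06 in controls 6 to 10, without overlap. Both probe sets of this subunit gene were called, at 0.72 ± 0.13 (limma, adjusted p = 0.000634) and 0.62 ± 0.14 (adjusted p = 0.00295), and eef1g.S was at 0.51 ± 0.18 (adjusted p = 0.0475). The stronger probe set of eef1b2.L was higher by 0.72 ± 0.22 (adjusted p = 0.0234), but as described its 4 highest controls of set 2 were those of high tracer signal, and control 10 was at 11.80. The weaker eef1b2.L probe set differed by 0.08 ± 0.24 (limma, adjusted p = 0.833). Among the eEF1A genes the called one was eef1a1o.L, at 0.68 ± 0.20 (limma, adjusted p = 0.0182).

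Within eIF3 the calls fell on 3 subunits. eif3g.S was at 7.13, 7.69, 7.83, 7.11 and 7.67 in controls 1 to 5 and at 8.43, 8.62, 8.49, 8.59 and 8.48 in controls 6 to 10. The second group was tight, all of it above the first, and the difference was 1.03 ± 0.18 (limma, adjusted p = 0.000344). eif3g.L followed at 0.59 ± 0.17 (adjusted p = 0.0164), the joint eif3g probe set at 0.51 ± 0.18 (adjusted p = 0.0415), eif3m.S at 0.49 ± 0.14 (adjusted p = 0.0157) and 1 of the eif3a.L probe sets at 0.31 ± 0.10 (adjusted p = 0.0328). Over the 22 probe sets the median was 0.08, 15 were positive and 0 were called lower; after quantile normalization the median was -0.03, 12 were negative, 3 were called higher and 1 lower. The eEF2 median changed sign in the same way, from 0.15 to -0.06. The eif3k.L probe sets lay on both sides of 0, at 0.30 ± 0.25 (adjusted p = 0.407) and -0.49 ± 0.19 (adjusted p = 0.0742). The mean 3′ minus 5′ signal was 1.64 ± 1.27 (SD, n = 5) for the first 5 controls. For controls 6 to 10 it was 0.964 ± 0.443 (SD, n = 5), and with it as a covariate 11 members (13.6%) were called higher and 1 (1.23%) lower, beside 13.9% and 7.41% of all probe sets.

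Higher calls were also made for start codon selection (2 of 6 probe sets) and for eIF2 and eIF2B (1 of 8), beside 14.9% of all probe sets. After quantile normalization the counts called higher were 1 and 0, beside 10.7% of all probe sets. eif1b.S, of the eIF1 family that guards the start codon, was at 11.40, 11.91, 12.04, 11.48 and 11.75 in controls 1 to 5 and at 12.48, 12.29, 12.23, 12.57 and 12.4997 in controls 6 to 10. It was higher by 0.70 ± 0.14 (limma, adjusted p = 0.00136), without overlap, and eif1b.L by 0.39 ± 0.12 (adjusted p = 0.029). eif2s3.S, the gamma subunit of eIF2, was higher by 0.41 ± 0.11 (adjusted p = 0.00925), at 10.90, 11.19, 11.30, 11.27 and 11.05 in controls 1 to 5 and at 11.55, 11.56, 11.47, 11.65 and 11.54 in controls 6 to 10. eif5.S, the GTPase activator of eIF2, was read by 2 probe sets at -0.24 ± 0.21 (limma, adjusted p = 0.423) and -0.21 ± 0.19 (adjusted p = 0.439).

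The repressor eif4ebp2.S stood apart between the sets more than under the injection. It was at 7.89, 8.34, 8.01, 7.63 and 7.96 in controls 6 to 10, all above the controls and the mRNA arrays of set 1 given earlier, and the difference between the controls was 0.88 ± 0.16 (limma, adjusted p = 0.000706). The member with the most positive difference was eef1aknmt.S, an eEF1A methyltransferase gene, at 3.92, 4.53, 5.13, 4.38 and 4.50 in controls 1 to 5 and at 5.70, 6.62, 7.11, 5.75 and 4.92 in controls 6 to 10. It differed by 1.53 ± 0.50 (limma, adjusted p = 0.0323), with low signal and a wide spread.

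Both lower calls fell in the cap-binding group. eif4e3.S, of a divergent class of eIF4E, was lower by -0.50 ± 0.18 (limma, adjusted p = 0.0483), at 6.79, 7.23, 6.72, 6.60 and 7.53 in controls 1 to 5 and at 6.73, 6.52, 6.23, 6.42 and 6.47 in controls 6 to 10, with overlap. eif4g2.S, an eIF4G relative without the eIF4E-binding part, was lower by -0.30 ± 0.10 (adjusted p = 0.0409), at 12.82, 12.74, 12.68, 12.89 and 12.95 against 12.56, 12.45, 12.42, 12.66 and 12.52. The probe set that joins eif4g2.S and nat1 differed by -0.01 ± 0.09 (adjusted p = 0.961). In the fit of only the 10 control arrays neither eif4e3.S nor eif4g2.S was called, and each kept its call in 3 of 10 fits that left out 1 array. Of the 9 probe sets of the group 7 were negative. The 2 positive ones were the copy eif4e3.L, at 0.30 ± 0.13 (limma, adjusted p = 0.0876), and eif4g3, at 0.62 ± 0.33 (adjusted p = 0.179). Without overlap were 11 members above, beside 10.8% of all probe sets, and 1 below, beside 6.4%.

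Genes around the factors differed between the sets to unequal degrees, beside 14.9% of all probe sets called higher and 8.53% called lower. Of 84 tested probe sets of cytosolic ribosomal proteins 23 (27.4%) were called higher in controls 6 to 10 and 0 lower, with a median of 0.30; after quantile normalization 6 were called higher and 1 lower, with a median of 0.16. rpl22.S, of the large subunit, rose by 0.81 ± 0.14 (limma, adjusted p = 0.00038), and rps21.S, of the small subunit, by 0.73 ± 0.16 (adjusted p = 0.00233). In the mTOR and S6 kinase list 3 of 16 (18.8%) were higher and 0 lower, among them pdcd4.L, an inhibitor of eIF4A, by 0.88 ± 0.18 (adjusted p = 0.00145) and mknk2.L, of an eIF4E kinase, by 0.83 ± 0.22 (adjusted p = 0.00893). Of 33 tested probe sets of aminoacyl-tRNA synthetases 2 (6.06%) were higher and 1 (3.03%) lower, with vars1.S at 0.49 ± 0.12 (adjusted p = 0.00612) and yars1.S at -0.72 ± 0.18 (adjusted p = 0.00821).

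The smaller lists were mixed. Of 15 tested probe sets of poly(A) binding and mRNA storage 1 was higher, lsm14b.S by 0.63 ± 0.14 (limma, adjusted p = 0.00244), and 1 lower, lsm14a.S by -0.60 ± 0.15 (adjusted p = 0.00821). The stress response list was read only through nck1 and ppp1r15b, both known as partners in eIF2 dephosphorylation, and 3 of its 4 probe sets were called higher. Of these, 2 read the single gene ppp1r15b.L, and nck1.S lay between 3.50 and 3.54 in controls 1 to 5, below log2 4. The copy nck1.L was not called, at 0.57 ± 0.28 (limma, adjusted p = 0.149). Termination and recycling (6 tested) and the synthesis of hypusine and diphthamide (3 tested) gave 0 calls by limma. By tracer state in set 2, 1 probe set of these lists was called, beside 1.29% of all probe sets called higher and 1.65% called lower. It was mknk2.S, the other copy of the eIF4E kinase gene, at 5.27 ± 0.32 (SD, n = 5) in arrays of low and 7.23 ± 0.16 (SD, n = 5) in arrays of high tracer signal. It was higher by 1.97 ± 0.24 (limma, adjusted p = 0.000252), while in set 1 its mRNA minus control difference was 0.50 ± 0.43 (adjusted p = 0.88). With the replicate block that set 1 difference was 0.50 ± 0.13 (limma, adjusted p = 0.281), and it was positive in 5 of 5 pairs. Another mknk2.S probe set was not called by tracer state, at 1.07 ± 0.60 (limma, adjusted p = 0.409), and was higher in 4 of 5 pairs of set 1.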

How the data were processed

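The authors deposited 1 log2 value per probe set and array, which per the submitters' processing notes comes from GCRMA. The GCRMA version is not given in the sources used here, nor is which arrays were processed jointly. The 15611 probe sets include 120 controls, which were left out; of the rest, 9304 carry 1 symbol, 195 several and 5992 none. A probe set above log2 4 in at least 5 of 20 arrays was tested. Differences were fitted with limma 3.58.1 in R 4.3.3 (lmFit, eBayes) over all 20 arrays, as 4 cells by label and array set, or by set and tracer state, with Benjamini-Hochberg adjustment over 10435 probe sets and a threshold of 0.05; the script was tested on simulated data. Precision is limited by the number of arrays. After removal of cell means, same-numbered mRNA and control arrays correlated at 0.226 to 0.634, over 0.1 in 5 of 5 pairs, so the numbers were taken to pair them. Among controls 1 to 5, however, mRNA 4 correlated best with a control of another number, as did morpholino 2. Best match alone would thus not set the mRNA numbers apart from the morpholino numbers. Beside a level, ± gives the SD over arrays; beside a difference, the SE of the limma fit.

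Members, role groups, gene lists and tests were chosen with earlier results of these data known. Named were the probe set with the highest mean of most roles, the called members with the smallest adjusted p (up to 6 in each direction, or the 3 with the smallest p where fewer than 3 were called), the extremes of SD, and up to 2 genes of each list. The probe sets of highest mean for eEF1A modifying enzymes, eEF1E, eIF4A, and eIF4B with eIF4H were left out above. They read eef1akmt1.S, eef1e1.L, eif4a3.1.S and eif4b.S. Others were named after their values were seen. Alternatives were no filter, a further quantile normalization, fewer arrays, each array left out, pooled controls, the replicate block, tracer state and the 3′ minus 5′ covariate. The annotation gives no sequence for these probe sets here, and none is printed.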

Additional observations from a re-analysis of the deposited data

Results flagged for a closer look

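Single arrays stood apart in 8 of the 132 groups of 5 values examined by Dixon's test, where chance flags about 1 in 20. The array labelled morpholino 3 had the highest value of its group for eif4ebp2.S (8.86, next 8.15) and for a probe set of eif3a.L (13.46, next 13.22). Array mRNA 3 had the lowest value for 2 probe sets of eif5a.L (13.13, next 13.42, and 11.52, next 11.77). Array mRNA 5 was lowest for eif1b.L (13.09, next 13.39), and mRNA 2 was highest for eif4e3.S (7.39, next 6.86).

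Both remaining flags fell on the array whose tracer state differed from the rest of its labelled group. Both genes were among those named for a small p by tracer state, so these flags add no separate support. The array labelled morpholino 5, which had high tracer signal, was lowest of its labelled group for eif4g1.S (9.93, next 10.28). Control 10, which had low tracer signal, was lowest of its labelled group for eef1b2.L (11.80, next 12.23).

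The tracer difference of eif4g1.S was not the same in the 2 sets, by -0.75 (limma interaction, adjusted p = 0.0253; 0.252 with the 3′ minus 5′ covariate). Tracer signal appeared in arrays labelled uninjected control, at 14.46 in control 6, 14.35 in control 7, 13.84 in control 8 and 14.51 in control 9.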

How the results depend on the processing

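Of the alternatives for single members, 398 kept direction and side of the threshold, 35 fell below it, 6 passed it and 7 reversed. For mRNA minus control, pooling all 10 controls, which adds those of set 2, turned eif4ebp2.S to -0.063. For the morpholino comparison, a replicate block was fitted with controls 1 to 5, whose numbers correlated at 0.0593 to 0.281 (over 0.1 in 4 of 5, so not taken as pairs). It set arrays of set 2 against controls of set 1, so it holds the difference between the array sets. Between the controls of the sets 15 members (18.5%) were called higher, beside 14.9% of all probe sets. The block fit gave 5 members higher, with eif3m.S at 0.20, eif4e1b.S at -0.064, eef1b2.L at 0.30 and eif4a2.L at 0.0072. Leaving out the 8 arrays whose tracer goes against the label left 1 array in each arm (morpholino 5 and control 10), and the differences of these single arrays were -0.40 for eif4e1b.S and 0.63 for eef1b2.L. By tracer state, the 10 arrays alone gave 1 member higher and 0 lower, and the 3′ minus 5′ covariate 0 lower. For the controls, quantile normalization gave 8 higher, beside 10.7% of all probe sets, and the 10 arrays alone gave 0 lower. Low tracer signal alone or the covariate gave 1 lower, beside 6.64% and 7.41% of all probe sets. The covariate left 0 in the interaction, beside 0 of all probe sets. Shares over all probe sets are not given for the block with controls 1 to 5, the 10 arrays alone or the fits without 1 array. Those counts of members cannot be set against a share. Leaving out 1 array gave 0 members in both comparisons by label, 0 to 1 higher and 0 to 1 lower by tracer state, 9 to 15 higher and 0 to 2 lower between controls, and 0 to 1 lower in the interaction. The causes were not tested. The replicate block of the mRNA comparison changed no member's call. The cells by tracer state, the interaction's alternatives and the covariate were chosen after seeing the data. The number of arrays limits the precision, and probe sets near the top of the scale may understate differences.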
